A study of Mus musculus with 20 samples.

Results

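Antibody genes were examined in bulk RNA from mouse sarcomas. The group holds the heavy chain, kappa and lambda light chain genes and Jchain: every gene whose symbol begins with Ighv, Igkv or Iglv, the constant genes Ighm, Ighd, Ighg1, Ighg2b, Ighg2c, Ighg3, Igha, Ighe, Igkc, Iglc1, Iglc2 and Iglc3, and Jchain, where 10 or more counts were summed over the 20 libraries. Of 361 genes with such names 213 reached that number, out of 51826 genes in the table, while 58 had 0 counts and 90 had 1 to 9. At the edge of the rule, 2 genes had exactly 10 counts and 2 had 9. The 213 genes were 107 heavy chain V genes, 90 kappa V genes, 3 lambda V genes, 8 heavy constant genes, 4 light constant genes and Jchain. In the mm10 (GRCm38) build the heavy chain members lie on chromosome 12 between 113254830 and 116000461, the kappa members on chromosome 6 between 67609713 and 70726966, the lambda members on chromosome 16 between 19061618 and 19260859, and Jchain on chromosome 5 between 88519809 and 88527891.

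An antibody is built of paired heavy and light chains, and each B cell joins its own choice of V gene to a constant gene. Resting B cells make IgM and IgD, and class switching replaces these with an IgG, IgA or IgE constant gene (Ighg, Igha, Ighe) while the V gene stays the same. Plasma cells carry very large amounts of these transcripts, and the joining chain encoded by Jchain links IgA or IgM units into polymers. The spread of V genes in a tissue can be wide where many B cell clones are present and narrow where few clones make most of the transcript.

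The samples were 14 lung metastases and the 6 primary tumours with which the labels match them. Here "set" stands for metastases and the primary tumour they share: 4 metastases belong to primary tumour 1 and another 4 to primary tumour 2, 2 belong to each of primary tumours 3 and 6, and 1 to each of primary tumours 4 and 5. Metastases are written with the set before the hyphen, so that 2-3 is the third of set 2, and 5-x is the metastasis of set 5, which carries no number. The only genotype given for both groups is a mixed background, and no label gives the strain, sex, age, tumour site, treatment or driver mutation, or says which tumours were taken from different mice. The p-values therefore cover the spread among these samples, which may be partly technical. Libraries held 20603620 to 36824370 counts, of which the antibody genes took 0.00125% to 0.346% in metastases and 0.000129% to 0.207% in primary tumours.

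Several libraries stood apart, or did not follow their set labels. Primary tumour 4 held 34 antibody counts in all and primary tumour 6 held 245, and the same pair had summed CPM (counts scaled to a common library total) of 6.36 and 10.9 over the 12 macrophage markers, where the other 4 primary tumours had 2212 to 3544. Metastases 2-3 and 2-4 held 428 and 408 antibody counts, against 20715 and 20788 in metastases 2-1 and 2-2 of the same set. Metastases 1-1 and 5-x and primary tumour 5 together held 65.9% of all 342924 antibody counts. For V gene use, 16 libraries had at least 200 V counts, and 6 of the 15 whose set held another such library were most like a library of another set. The part of tissue content in these differences was not tested.

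The V genes that set the libraries apart are shown by the last 90 bases of each V exon, read from the GENCODE vM21 transcripts, with coordinates on GRCm38. Capitals run from the conserved cysteine codon to the end of the exon, which is the germline start of the third complementarity-determining loop. They were chosen after their values were seen: Ighv1-9 and Igkv19-93 led in the metastases of sets 3 and 6, Ighv1-15 and Igkv8-30 in primary tumour 5, Ighv5-17 and Igkv10-96 were high in primary tumours 2 and 3, Ighv1-81 led in the metastases of set 1, and Igkv14-126 passed the test between groups.
Ighv1-9: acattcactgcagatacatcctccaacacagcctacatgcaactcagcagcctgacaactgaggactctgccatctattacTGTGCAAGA
Igkv19-93: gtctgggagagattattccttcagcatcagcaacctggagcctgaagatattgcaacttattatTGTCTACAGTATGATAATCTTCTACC
Ighv1-15: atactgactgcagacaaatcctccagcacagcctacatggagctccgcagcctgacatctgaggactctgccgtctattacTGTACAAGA
Igkv8-30: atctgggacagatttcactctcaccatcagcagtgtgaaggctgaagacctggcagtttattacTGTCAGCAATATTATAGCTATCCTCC
Ighv5-17: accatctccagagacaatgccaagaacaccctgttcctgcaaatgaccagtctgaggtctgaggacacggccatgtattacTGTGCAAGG
Igkv10-96: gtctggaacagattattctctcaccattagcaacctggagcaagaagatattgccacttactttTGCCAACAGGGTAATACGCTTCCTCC
Ighv1-81: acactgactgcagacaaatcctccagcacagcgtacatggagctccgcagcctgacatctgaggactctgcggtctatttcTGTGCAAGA
Igkv14-126: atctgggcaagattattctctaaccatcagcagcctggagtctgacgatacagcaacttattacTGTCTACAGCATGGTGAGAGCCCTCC
The heavy chain stretches are chr12:114583569-114583658 (Ighv1-9), chr12:114657353-114657442 (Ighv1-15), chr12:113859149-113859238 (Ighv5-17) and chr12:115920279-115920368 (Ighv1-81), all on the minus strand. The kappa stretches are chr6:68736297-68736386 (Igkv19-93), chr6:70117061-70117150 (Igkv8-30) and chr6:68631963-68632052 (Igkv10-96) on the minus strand and chr6:67896553-67896642 (Igkv14-126) on the plus strand. Each lies in the coding part of the V exon. V genes resemble each other closely, so reads can be split between them: of the 200 V members, 35 shared no stretch of 50 bases with another gene's transcripts and 20 shared over 50% of such windows. Igkv19-93 and Igkv14-126 shared 0%, Ighv1-9 shared 0.576%, Ighv1-81 11.6%, Ighv5-17 14.9%, Igkv8-30 19.1%, Ighv1-15 20.9% and Igkv10-96 32.6%. Among the constant genes Igha, Ighm, Igkc and Jchain shared none, while Iglc3 shared 10.7%, Iglc2 7.65%, Ighg2c 5.49% and Ighg2b 4.15%, so the counts of these last genes are less certain.

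Summed over the 213 genes, the lung metastases held a median of 247 CPM (lowest 12.3, highest 3477) and the primary tumours a median of 119 CPM (lowest 1.82, highest 1906). The groups overlapped over most of their range, and each held libraries at both ends of it. In set 1 the metastases had 3477, 502, 202 and 273 CPM and the primary tumour 449 CPM. In set 2 they had 684, 574, 15.4 and 12.3 CPM, against 106.5 CPM in the primary tumour. Within each of these sets, then, the metastases lay on both sides of their primary tumour. In set 3 the metastases had 255 and 64.4 CPM and the primary tumour 132 CPM, and in set 4 the metastasis had 239 CPM and the primary tumour 1.82 CPM. In set 5 the metastasis had 1466 CPM and the primary tumour 1906 CPM, and in set 6 the metastases had 51.0 and 48.9 CPM and the primary tumour 8.23 CPM. The arithmetic mean CPM of the metastases was above the primary tumour in 5 of 6 sets, by ratios of 2.48, 3.02, 1.21, 132 and 6.07 in sets 1, 2, 3, 4 and 6. It was below the primary tumour in set 5, with a ratio of 0.769. Such a mean is pulled up by the highest libraries, and in sets 1, 2 and 3 some metastases lay below their primary tumour. The ratios of 132 and 6.07 rest on primary tumours 4 and 6, with 34 and 245 antibody counts. Taken singly, 8 of 14 metastases were above their own primary tumour. In RNA from whole tissue, fewer B or plasma cells and less RNA per cell cannot be told apart.

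**Figure D1:**
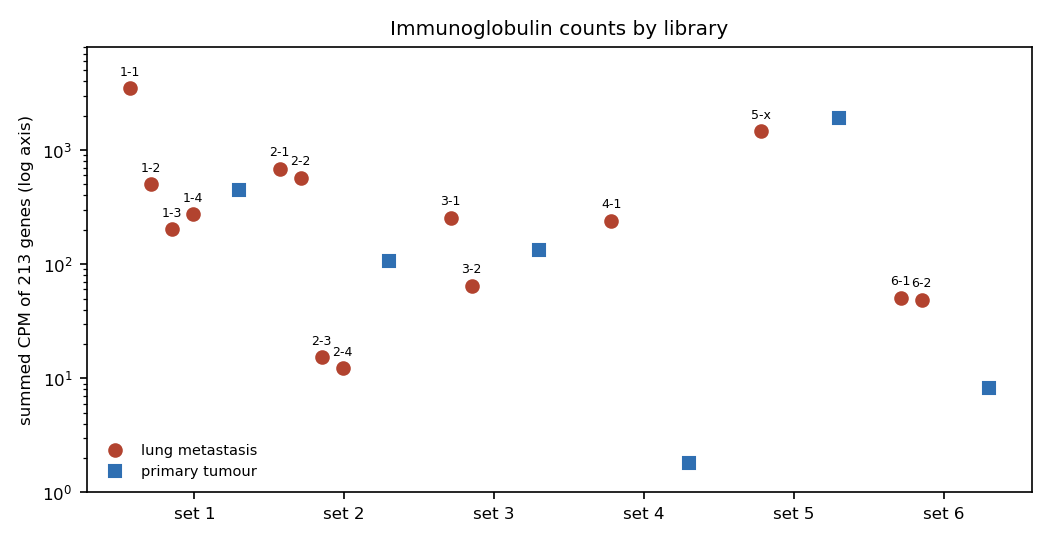
Summed CPM of the 213 antibody genes in each library (log axis), by matched set, with lung metastases as numbered circles left of the primary tumour as a square. Metastases ran from 12.3 to 3477 CPM and primary tumours from 1.82 to 1906 CPM, and in sets 1, 2 and 3 the metastases lie on both sides of their primary tumour.

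Tested gene by gene, a single antibody gene, the kappa V gene Igkv14-126, passed the threshold between lung metastases and primary tumours. Of the 101 members with enough counts for the test, 1 rose and 0 fell (edgeR quasi-likelihood test with the set as a block, Benjamini-Hochberg adjusted p under 0.05 over all genes), while 7.34% of the 18452 genes tested rose and 6.44% fell. The members called thus made up a smaller share than the background. At an unadjusted p under 0.05, 27 members were higher and 0 lower, 26.7% of those tested, where 14.7% of all genes were higher and 14.1% lower. DESeq2 called 19 members higher and 0 lower, or 19.4% of those it tested, where it called 12.7% of all genes higher and 10.2% lower. Limma voom called 1 member higher and 0 lower, where it called 8.21% of all genes higher and 7.6% lower. The median log2 fold change of the tested members was 1.80, against -0.0003 over all genes, and 100 of the 101 were above 0. Heavy and light chain genes are transcribed in the same cells, so these fold changes are not separate observations. The filter also asked for enough counts in at least as many libraries as the smaller group holds. Primary tumours 4 and 6 held 2 and 58 V counts, so a V gene could pass only with metastases among those libraries. The filter thus favoured V genes with counts in metastases, and the number above 0 is partly set by it. By class, the median was 1.81 for 42 heavy V genes, 1.94 for 45 kappa V genes and 1.13 for 7 heavy constant genes. The members left out did not have enough counts in enough libraries for the test, so a gene high in a single library could be among them.

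Igkv14-126 had 0.0359 CPM in the lowest lung metastasis, a median of 0.765 CPM and 3.19 CPM in the highest, against 0, 0.0168 and 0.320 CPM in the primary tumours. The groups overlapped, since metastases 1-2, 2-3, 2-4, 6-1 and 6-2 lay below primary tumour 1. The Igkv14-126 log2 fold change was 3.49 ± 0.983 (SE, edgeR adjusted p = 0.0273). The mean log2 CPM of a set's metastases was above its primary tumour in 6 of 6 sets, though single metastases lay below it. The fold change rests on few reads, 316 counts in the 14 metastases and 15 in the 6 primary tumours, of which 12 were in primary tumour 1. The call ended without set 2, 3, 4, 5 or 6 in turn (adjusted p = 0.0511 to 0.0634), with the metastases of each set summed (0.071), and in a model that also held a lung epithelium index, the mean log2 CPM of 18 lung genes, where the log2 fold change was -0.18 (0.947).

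Other V genes with the most counts or the highest share in a library did not pass. Ighv1-9, a heavy V gene, had 0, 0.910 and 18.4 CPM as lowest, median and highest of the metastases and 0, 0.0772 and 1.41 CPM in the primary tumours (2.99 ± 1.22 SE, adjusted p = 0.116). Igkv19-93 had 0, 1.22 and 11.7 CPM in metastases and 0, 0.0845 and 1.53 CPM in primary tumours (3.23 ± 1.18, adjusted p = 0.0811). For both, the mean log2 CPM of a set's metastases was above its primary tumour in 6 of 6 sets, but both ranges overlapped. Single metastases lay below their primary tumour, such as 1-3 with 0.515 and 0.309 CPM against 0.854 and 0.907 CPM in primary tumour 1. Ighv1-15 had 0, 0.263 and 6.08 CPM in metastases and 0, 0.0304 and 37.4 CPM in primary tumours (1.45 ± 1.66, adjusted p = 0.611). Igkv8-30 had 0, 1.44 and 11.8 CPM in metastases and 0, 0.408 and 60.2 CPM in primary tumours (1.02 ± 1.19, adjusted p = 0.621). In these last V genes primary tumour 5 was above every metastasis, while the other primary tumours lay at or below 0.347 and 1.84 CPM. The log2 fold changes of Ighv2-9-1 (3.11), Igkv17-121 (2.67), Igkv6-15 (2.12), Igkv4-57-1 (2.03), Ighv1-81 (2.00), Igkv6-32 (1.86), Ighv1-26 (1.79), Ighv3-6 (1.78), Igkv1-110 (1.61), Ighv14-4 (1.12), Ighv5-17 (1.04), Ighv5-6 (0.84) and Igkv10-96 (0.49) were above 0, with adjusted p from 0.111 for Igkv17-121 to 0.805 for Igkv10-96. The lambda V genes Iglv1 (1.59 ± 1.16, adjusted p = 0.394) and Iglv3 (1.40 ± 0.972, 0.37) did not pass either, and Iglv2 was too low to test, with 41 counts over the metastases and 13 over the primary tumours.

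None of the constant genes or Jchain passed the test. Igha, the heavy chain of IgA, had the most counts of all members, with 2.13, 44.8 and 1150 CPM as the lowest, median and highest of the metastases and 0.374, 14.3 and 427 CPM in the primary tumours. Its log2 fold change was 1.48 ± 1.01 (SE, adjusted p = 0.359). Jchain had 0.932, 22.8 and 383 CPM in metastases and 0.855, 10.2 and 149 CPM in primary tumours (1.69 ± 0.989, adjusted p = 0.277). For both genes the highest metastasis was 1-1 and the highest primary tumour was 5, and the rest of the groups overlapped. Igkc, the constant gene of nearly all mouse light chains, had 2.32, 39.7 and 737 CPM in metastases and 0.214, 21.7 and 387 CPM in primary tumours (1.53 ± 1.02, adjusted p = 0.348).

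The constant genes with the smallest p were Ighg3 and Ighd. Ighg3, which encodes the IgG3 heavy chain, had 0.0718, 0.842 and 1.85 CPM as lowest, median and highest of the metastases and 0, 0.229 and 0.353 CPM in the primary tumours (2.19 ± 0.739, adjusted p = 0.059). Ighd, made together with Ighm by naive B cells, had 0.0301, 1.22 and 3.32 CPM in metastases and 0, 0.284 and 0.588 CPM in primary tumours (2.23 ± 0.83, adjusted p = 0.0858). For both, the mean log2 CPM of a set's metastases was above its primary tumour in 6 of 6 sets, and the groups overlapped at their low end. Neither gene passed the threshold in edgeR, while DESeq2 called both. Ighm, the IgM heavy chain, had 2.01, 19.4 and 147 CPM in metastases and 0.0534, 30.8 and 43.6 CPM in primary tumours (0.83 ± 0.996, adjusted p = 0.632). The mean log2 CPM of Ighm in a set's metastases was above its primary tumour in 3 of 6 sets. Ighg1 (1.13 ± 0.958, adjusted p = 0.475), Ighg2b (0.64 ± 1.22, 0.775) and Ighg2c (0.08 ± 1.28, 0.977), the other IgG heavy chains, did not pass. For these 3 genes primary tumour 5 was the highest library of its group, at 132, 109 and 290 CPM, while the highest metastasis, 1-1, had 21.7, 103 and 175 CPM. Ighe, the IgE heavy chain, was too low to test, with 14 counts over the metastases and 2 over the primary tumours. The lambda constant genes Iglc1 (1.54 ± 1.02, adjusted p = 0.345), Iglc2 (2.12 ± 0.968, 0.16) and Iglc3 (0.38 ± 0.74, 0.781) did not pass either, and Iglc2 and Iglc3 share sequence with each other.

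The isotype of the antibody transcripts, taken as shares of the heavy constant counts per kb of exon, split the libraries in a way that crossed the groups. Igha led in 7 metastases and 3 primary tumours, Ighm in 7 metastases and 2 primary tumours, and Ighg2c in 1 primary tumour. This tally depends on the length used. By plain counts, and also per kb of coding exon, Igha led in 9 metastases and 4 primary tumours and Ighm in 5 metastases and 2 primary tumours, since metastases 2-3 and 2-4 and primary tumour 5 then had Igha first. The metastases of set 1 were led by Igha, with 62.5%, 81.7%, 44.1% and 54.1%, as was primary tumour 1 with 69.4%. Igha also led in metastases 2-1 (58.4%), 2-2 (61.8%) and 5-x (71.2%), and in primary tumours 4 and 6 at very low counts. The Igha share was lower in primary tumours 2 (15.2%) and 5 (32.9%), to which these metastases of sets 2 and 5 are matched. By plain counts Igha was first in primary tumour 5 too, with 43.3%. As plain counts the Igha share was 86.9% in metastasis 1-2 (7037 of 8094, exact binomial 95% interval 86.2 to 87.7) and 76.7% in metastasis 5-x (17770 of 23182, 76.1 to 77.2). Such intervals cover counting error only.

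Ighm led in the metastases of sets 3 and 6. It took 73.1% and 77.3% of the share per kb in metastases 3-1 and 3-2 and 70.9% and 69.9% in metastases 6-1 and 6-2. Primary tumours 2 and 3 had 58.1% and 60.2%, so IgM led in primary tumour 3 as in its metastases. In primary tumour 6, however, it held 3.59% per kb. As plain counts that was 3 of 108, or 2.78% (exact binomial 95% interval 0.577 to 7.90%). As plain counts Ighm held 1867 of 2780 in metastasis 3-1, or 67.2% (65.4 to 68.9). Metastasis 4-1 was mixed, with 38.8% Ighm, 30.5% IgG, 20.2% Igha and 10.4% Ighd. In metastasis 2-3 Ighm (39.9%) and Igha (39.6%) were nearly equal per kb, on 77 and 108 counts, and in metastasis 2-4 Ighm held 34.7%.

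Among metastases, Ighd was highest in libraries where Ighm led, though not in all of those. Its share per kb was 10.4% in metastasis 4-1, 7.80% in 3-2, 4.64% in 6-1 and 3.91% in 6-2, and at most 1.54% in the other metastases. Among primary tumours it was 9.44% in primary tumour 4, from a single count of 12 (exact binomial 95% interval of the count share 0.211 to 38.5%), and at most 0.707% in the others. Metastasis 3-1, with Ighm at 73.1%, had an Ighd share of 0.311%. The pair from set 3 therefore had like shares of IgM and different shares of IgD, as counts 46 of 611 in metastasis 3-2 (7.53%, 5.56 to 9.91%) and 8 of 2780 in metastasis 3-1 (0.288%, 0.124 to 0.566%).

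The 4 IgG genes together held 4.83% to 38.2% of the share per kb in metastases, with the lowest in 6-1 and the highest in 2-4, and 12.1% to 63.9% in primary tumours. Taken as 1 class, IgG held the largest share in metastasis 2-4, with 38.2% per kb on 83 of 223 counts, and in primary tumour 5. In primary tumour 5 Ighg2c held 45%, Ighg1 10.5% and Ighg2b 8.42%, and by plain counts IgG had 18071 of 33573, or 53.8% (exact binomial 95% interval 53.3 to 54.4). Metastasis 5-x of the same set had 24.9% IgG and 2.49% Ighg1. In metastases 3-1, 3-2, 6-1 and 6-2 IgG held 8.51%, 6.84%, 4.83% and 6.54%, the 4 lowest shares per kb of the 20 libraries. By plain counts metastasis 3-1 had 9.21%, above metastasis 1-2 (7.87%) and primary tumour 1 (8.04%).

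**Figure D2:**
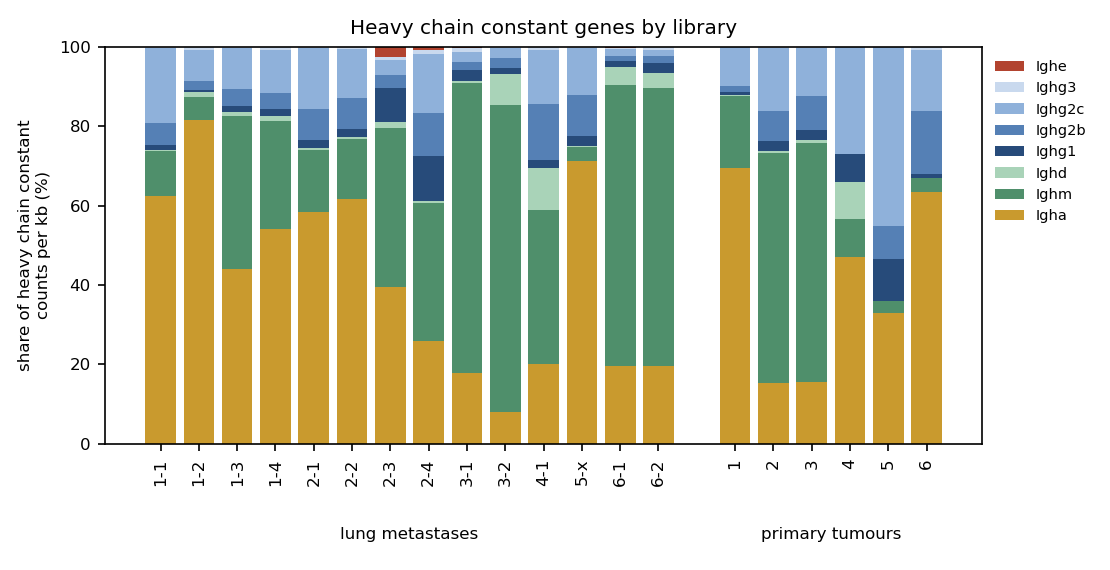
Stacked shares of the 8 heavy constant genes per kb of exon in each library, lung metastases left and primary tumours right. Igha led in 7 metastases and 3 primary tumours, Ighm in 7 metastases, among them the 4 of sets 3 and 6 at 69.9% to 77.3%, and in primary tumours 2 and 3, and Ighg2c in primary tumour 5, counting single genes. Primary tumour 4 rests on 12 counts.

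Light chains were mostly kappa. Of the light constant counts, lambda held a median of 7.78% in metastases, from 2.53% to 16.2%, and 6.46% in primary tumours, from 0% to 7.66%. Metastases 3-2 (16.2%, exact binomial 95% interval 12.4 to 20.8) and 4-1 (14.8%, 12.6 to 17.2) were the highest. The V counts did not put them highest. Lambda and kappa V counts were 6 and 254 in metastasis 3-2 and 80 and 1492 in 4-1, against 433 and 5450 in 5-x. The same metastases had the most kappa V counts per Igkc count, 0.948 and 1.83, so their lambda shares go with few Igkc counts. Primary tumour 5 had 3.56% (3.25 to 3.88), with metastasis 5-x at 8.37% (7.88 to 8.87).

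Ratios between the members set metastasis 4-1 apart. Counts of kappa V genes per Igkc count were 1.83 there, where the other metastases had 0.43 to 0.948 and the primary tumours 0.25 to 0.729. Its heavy V counts were 0.686 of the heavy constant counts, against at most 0.211 in the other metastases and 0.194 in the primary tumours. Jchain counts per Igkc count were 4.35 in metastasis 4-1 and 1.26 in metastasis 3-2, with 0.358 to 0.658 in the other metastases. In primary tumours the ratio was 0.384 to 0.589, apart from primary tumour 4, with 16 Jchain and 4 Igkc counts. The cause of these ratios was not tested.

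The number of V genes mostly followed the number of V counts. With 3 or more counts required, lung metastases had a median of 110.5 V genes of the 200, from 2 in metastasis 2-3 to 180 in metastasis 1-1. Primary tumours had a median of 48, from 0 in primary tumour 4 to 150 in primary tumour 5. The medians were 160 in metastases and 104.5 in primary tumours with 1 or more counts required, and 50 in metastases and 15 in primary tumours with 10 or more. Metastases 5-x (173), 2-1 (154), 2-2 (153), 1-2 (140), 4-1 (128), 1-4 (119), 1-3 (102) and 3-1 (78) came between, and metastases 3-2, 6-2, 6-1 and 2-4 had 34, 26, 25 and 9. Primary tumours 1, 3, 2 and 6 had 137, 52, 44 and 5. The V counts behind these numbers ran from 61 to 21964 in metastases and from 2 to 12525 in primary tumours, so the numbers do not compare breadth between libraries.

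At a common 200 V counts, computed for the 16 libraries that had them, the expected number of V genes ran from 62.2 to 93.1 in metastases and from 56.4 to 88.3 in primary tumours, with medians of 86.6 and 69.6 for metastases and primary tumours. The 4 metastases of set 1, metastases 2-1, 2-2, 4-1 and 5-x and primary tumour 1 lay at 85.0 to 93.1. Primary tumour 5 was the narrowest of all, at 56.4 V genes, although it had 12525 V counts. Below 85 were also metastases 3-2 (62.2), 3-1 (74.5), 6-2 (75.4) and 6-1 (80.7) and primary tumours 2 (67.5) and 3 (71.7). The effective number of V genes, the inverse of the summed squared shares, gave the same low libraries: for heavy V genes it was 11.0, 13.4, 16.1 and 23.9 in metastases 3-2, 3-1, 6-1 and 6-2 and 9.19, 15.1 and 20.4 in primary tumours 5, 2 and 3. The other libraries with enough counts had 34.6 to 50.2 (metastases) and 41.2 (primary tumour 1). Few counts lower the effective number, and no allowance was made for that. It rested on 109 to 423 heavy V counts in the metastases of sets 3 and 6. In primary tumours 2, 3 and 5 it rested on 202, 223 and 5432. For kappa V genes it was 6.30 in metastasis 3-2 and 7.55 in primary tumour 5, and 28.8 to 37.7 in the metastases of sets 1, 2, 4 and 5.

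**Figure D3:**
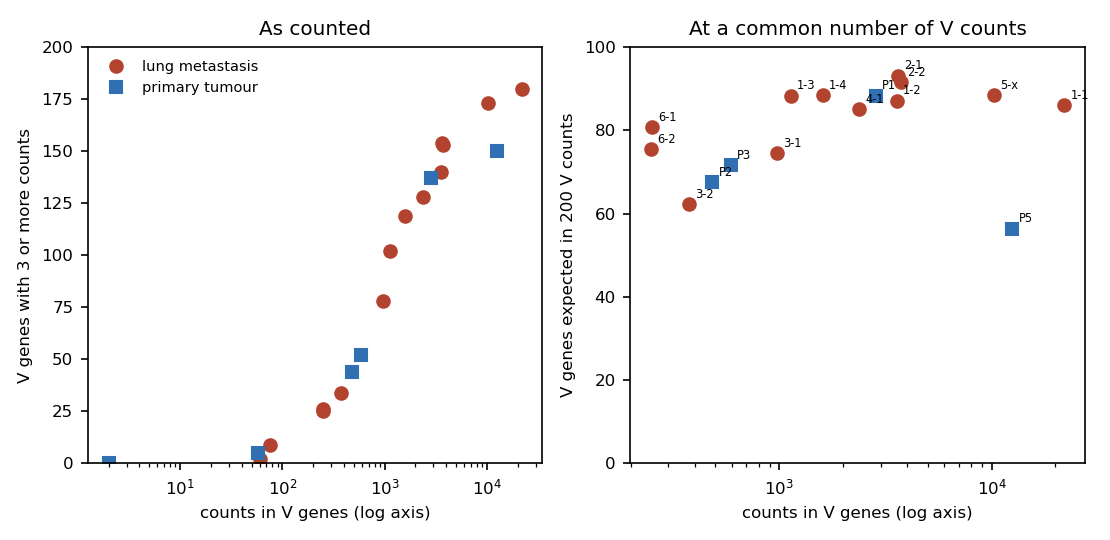
V genes with 3 or more counts against the number of V counts in each library (left, log horizontal axis), and V genes expected in 200 V counts for the 16 libraries that had them (right), lung metastases as circles and primary tumours as squares. On the left the number is mostly higher where the counts are higher, and on the right primary tumour 5 lies lowest at 56.4 and metastasis 2-1 highest at 93.1.

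The leading V genes marked out blocks of libraries that crossed the groups. These blocks were defined from the data, and no test was made between them. In metastases 3-1, 3-2, 6-1 and 6-2 the heavy V gene Ighv1-9 took 22.9%, 26.1%, 16.5% and 12.2% of the heavy V counts, and the kappa V gene Igkv19-93 took 29.8%, 37.4%, 29.5% and 27.0% of the kappa V counts. In the other metastases with at least 200 V counts Ighv1-9 took 1.10% to 5.59% and Igkv19-93 1.61% to 3.29%. In primary tumour 3, to which the metastases of set 3 are matched, Ighv1-9 held 0.448% and Igkv19-93 1.15% (4 of 349 counts). For metastasis 3-1 the exact binomial 95% interval of the Igkv19-93 share was 25.9 to 33.9 (155 of 521 counts), and for metastasis 6-2, the shallowest of the 4, it was 19.5 to 35.6 (34 of 126). The same germline sequences were thus the leading ones in metastases of 2 different sets. Their rearranged joints, which would tell clones apart, cannot be read from gene counts.

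Primary tumour 5 used another pair. Ighv1-15 took 23.4% of its heavy V counts (1272 of 5432, exact binomial 95% interval 22.3 to 24.6) and Igkv8-30 took 29.8% of its kappa V counts (2047 of 6861, 28.8 to 30.9). In metastasis 5-x these genes held 2.77% and 1.82%, and in the other 15 libraries with enough counts at most 3.2% and 7.71%. The V genes next in primary tumour 5, Ighv1-58 with 17.7% and Igkv8-21 with 15.4%, were chosen after their values were seen, and Igkv8-21 is the gene with which Igkv8-30 shares its windows. The family Igkv8 held 46.6% of the kappa V counts there and 5.56% to 16.1% in the metastases with enough counts, and the family Ighv1 held 83.3% of the heavy V counts, against 29.8% to 53.1% in those metastases.

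Primary tumours 2 and 3 had leading genes in common. Ighv5-17 took 17.3% and 11.2% of their heavy V counts, Ighv5-6 10.9% and 12.1%, and Igkv10-96 17.9% and 16.3% of their kappa V counts. Those shares rest on 202 and 223 heavy and 273 and 349 kappa V counts, so the interval of Ighv5-17 is wide, 12.4 to 23.3 in primary tumour 2. In the metastases of sets 2 and 3 with enough counts, Ighv5-17 held 2.82% to 4.49% and Igkv10-96 1.54% to 5.48%. Ighv5-17 was also high in metastasis 6-1, at 11.9% (13 of 109 counts, 6.51 to 19.5). Ighv1-81 was the leading heavy V gene of the 4 metastases of set 1, with 8.07%, 6.85%, 7.72% and 7.03%, and had 3.68% in primary tumour 1. It also led in metastasis 2-1, with 4.20%. It had 0 counts in metastases 3-1, 3-2, 6-1 and 6-2, which allows shares of up to 0.709%, 2.61%, 2.75% and 2.61%, and 0 counts in primary tumour 2, which allows up to 1.49%.

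**Figure D4:**
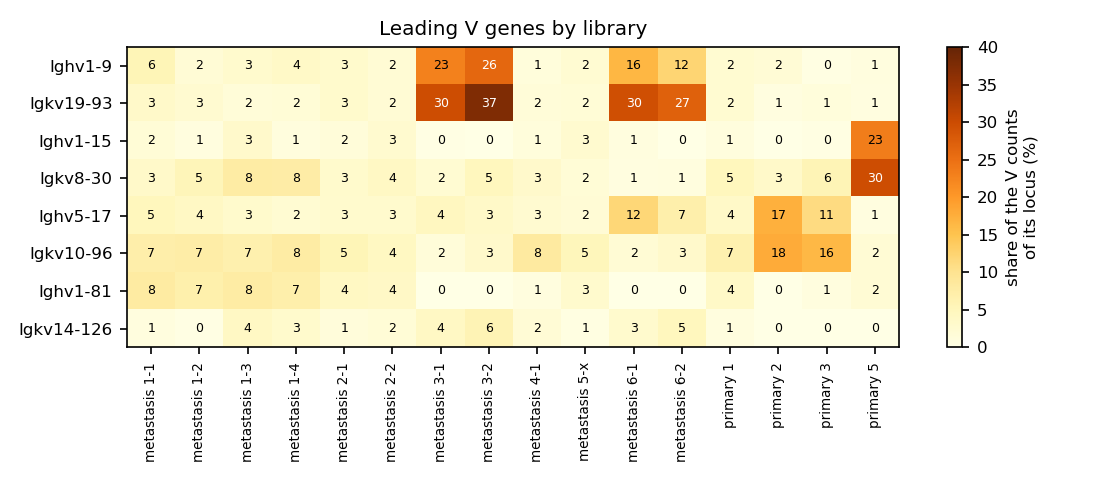
Share of 8 V genes among the V counts of their own locus, heavy or kappa, in the 16 libraries with at least 200 V counts, metastases left and primary tumours right. Ighv1-9 and Igkv19-93 stand out in metastases 3-1, 3-2, 6-1 and 6-2, Ighv1-15 and Igkv8-30 in primary tumour 5, and Ighv5-17 and Igkv10-96 in primary tumours 2 and 3.

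The overlap of V gene shares, the sum over genes of the lower of the shares of a pair of libraries, put numbers on these blocks. It is lowered by counting error where counts are few, and no allowance was made for that. Primary tumour 1 and the metastases of sets 1, 2, 4 and 5 (9 libraries, without 2-3 and 2-4) overlapped with each other by 67.4% to 87.2%, with the highest value between metastases 2-2 and 5-x of different sets. The 4 metastases of sets 3 and 6 overlapped with each other by 59.7% to 67.5%, and with those 9 libraries by 43.3% to 51.5%. Primary tumours 2 and 3 overlapped by 72.9% with each other. Their own metastases were further away: metastases 2-1 and 2-2 overlapped with primary tumour 2 by 49.0% and 47.7%, and metastases 3-1 and 3-2 with primary tumour 3 by 41.7% and 38.3%. Metastasis 5-x overlapped with primary tumour 5 by 40%, and no library overlapped with primary tumour 5 by more than 41.4%. In set 1 the metastases overlapped with their primary tumour by 73.7% to 81.4%. Sets 4 and 6 could not be compared in this way, since their primary tumours had too few V counts.

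**Figure D5:**
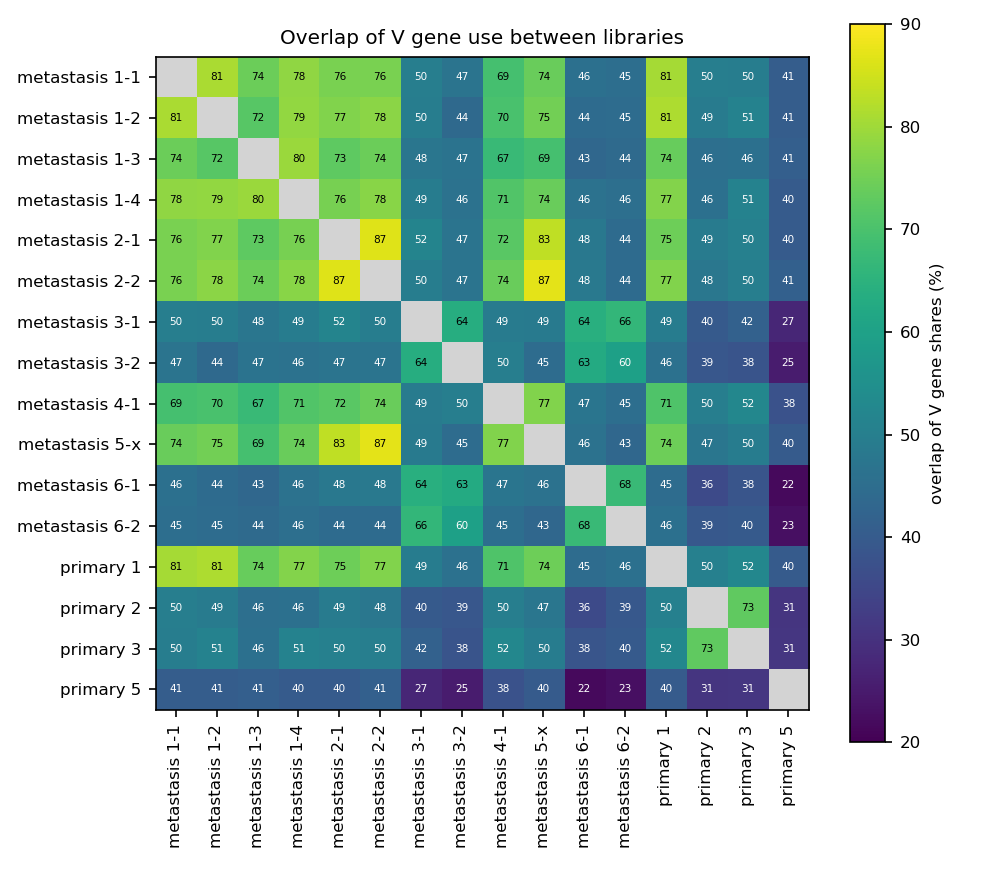
Overlap of V gene shares for each pair of the 16 libraries with at least 200 V counts, in percent, metastases first and primary tumours last on both axes. Primary tumour 1 and 8 metastases of sets 1, 2, 4 and 5 form a block at 67.4% to 87.2%, the 4 metastases of sets 3 and 6 a block at 59.7% to 67.5%, primary tumours 2 and 3 a pair at 72.9%, and primary tumour 5 overlaps any other library by at most 41.4%.

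Between the metastases of sets 1, 2, 3 and 6, the sets with replicates, 0 of 127 tested members passed the test of the set term (edgeR, adjusted p under 0.05), where 0.321% of 19919 genes passed. At an unadjusted p under 0.05 there were 47 members, 37% of those tested, where 29.5% of all genes were under it. The DESeq2 likelihood ratio test called 37 members, 30.8% of those it tested, where it called 25.1% of all genes. The smallest p among the members was that of Ighv1-26, with means of 3.32, 0.594, 0.0692 and 0.0148 CPM in sets 1, 2, 3 and 6 (adjusted p = 0.0993), the heavy V gene of highest share in primary tumour 1. This test reads levels, which within set 2 ran from 12.3 to 684 CPM over all members, and not shares. Metastases 6-1 and 6-2 were nearly alike in their sums, with 51.0 and 48.9 CPM of antibody genes and 341 and 344 CPM of macrophage genes. The spread within set 6 may therefore be partly technical, which was not tested. Ighm had means of 56.1, 20.2, 55.2 and 19.4 CPM (adjusted p = 0.541) and Igha of 376, 107, 17.3 and 7.62 CPM (0.182).

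Of 16 tested B cell marker genes 0 rose and 1 fell by edgeR, with 5 higher at an unadjusted p under 0.05, 4 higher by DESeq2 and 1 by limma voom, and the list's median log2 fold change was 0.51. Blk (2.25 ± 0.733, adjusted p = 0.0515), a kinase of the B cell receptor, and Ralgps2, an exchange factor for Ral proteins (0.46 ± 0.158, 0.0653), did not pass. The gene that fell was Ebf1 (-2.31 ± 0.678, adjusted p = 0.0331), a transcription factor of B cells that fat and stromal cells also make. The summed B cell list ran from 44.3 to 128 CPM in metastases and from 62.7 to 186 CPM in primary tumours. Of 14 plasma cell genes Sdc1, the surface proteoglycan syndecan 1 that epithelia also make, rose (1.39 ± 0.243, adjusted p = 0.0028), with 158 ± 90.7 CPM in metastases (SD, n = 14) and 52.8 ± 29.7 CPM in primary tumours (SD, n = 6). So did Eaf2 (1.41 ± 0.324, 0.0105), while Txndc5, a protein folding enzyme, fell (-0.70 ± 0.174, 0.0147). Mzb1, a folding factor particular to B and plasma cells, had 0.826 ± 1.09 CPM in metastases (SD, n = 14) and 1.11 ± 1.80 CPM in primary tumours (SD, n = 6; 0.45 ± 0.79 SE, adjusted p = 0.755). The calls of Ebf1, Eaf2 and Txndc5 ended without set 1 (adjusted p = 0.0919, 0.0806 and 0.11) and also with the metastases of each set summed (0.375, 0.0975 and 0.28). With the lung epithelium index in the model, the log2 fold change was 1.26 for Sdc1 (adjusted p = 0.0614), 0.42 for Eaf2 (0.578) and -0.89 for Txndc5 (0.0775), so these calls ended there.

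Of 5 tested genes of the germinal centre list 0 rose, none of them at an unadjusted p under 0.05 or by DESeq2 or limma voom. At an unadjusted edgeR p under 0.05, 4 were lower, and DESeq2 and limma voom each called 3 lower. By edgeR 2 fell, Mki67 (-1.17 ± 0.322, adjusted p = 0.0247) and Ung (-0.99 ± 0.29, 0.0325). They are a proliferation marker and a uracil repair enzyme that dividing cells of any type use. Both calls ended without set 1 (0.143 and 0.228), with the metastases of each set summed (0.116 and 0.289) and with the lung epithelium index (0.576 and 0.434). S1pr2, a receptor that holds B cells in germinal centres, did not pass (-0.49 ± 0.166, 0.0595). Vpreb2, of the surrogate light chain of B cell precursors, had 0 counts in all libraries.

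Of 9 tested factors that attract B cells or keep them alive edgeR called 0 in either direction. Before adjustment 1 of them was higher and 1 lower at p under 0.05, while DESeq2 called 1 higher and limma voom 0. The nearest were Tnfsf13b, which encodes the survival factor BAFF (1.85 ± 0.686, adjusted p = 0.0849), and the chemokines Cxcl12 (-1.01 ± 0.382, 0.0914) and Ccl25 (0.44 ± 0.276, 0.318). Of 9 tested genes of antibody transport and Fc receptors 1 rose and 1 fell. Pigr, the epithelial receptor that carries IgA and IgM polymers into secretions, rose (6.78 ± 1.12, adjusted p = 0.0021), with 14.6 ± 20.4 CPM in metastases (SD, n = 14) and 0.0815 ± 0.0546 CPM in primary tumours (SD, n = 6). Trim21, an antibody receptor inside cells, fell (-1.60 ± 0.319, 0.0052). The call of Trim21 ended with the metastases of each set summed (adjusted p = 0.0819), with 1 metastasis of each set alone (0.0623) and with the lung epithelium index (log2 fold change -1.95, 0.0559). Ms4a2, a chain of the IgE receptor of mast cells, did not pass (-2.66 ± 0.859, 0.0503).

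Lung tissue markers moved with the comparison. Of 18 lung epithelium genes 16 rose and 0 fell, none was at 0 in all libraries, and their sum ran from 84.4 to 15364 CPM in metastases and from 5.13 to 216 CPM in primary tumours. Of 10 airway genes 9 rose and 0 fell. Metastases 1-1 and 5-x had the highest lung epithelium sums, 15364 and 12902 CPM, and also the highest antibody sums of their group, while metastasis 2-3 had the lowest lung sum, 84.4 CPM, and 15.4 CPM of antibody genes. Primary tumour 5 had 1906 CPM of antibody genes at a lung sum of 61.4 CPM. In the model with the lung epithelium index, 0 members were higher and 23 lower, 22.8% of those tested, where 5% of all genes were higher and 3.51% lower. The 32 named members that were tested all had a negative log2 fold change there. Among metastases only 2-3 had a lung sum below that of primary tumour 1, 216 CPM, so the index nearly separates the groups. The group term of this model is then poorly determined, and its values do not show levels at equal lung content. Of the other lists, red cells had 6 of 6 genes rise and macrophages 2 of 12 rise and 0 fall. Yet the median log2 fold change of the macrophage list was -0.55. Its sums had medians of 1239 CPM in metastases and 2383 CPM in primary tumours, though primary tumours 4 and 6 had 6.36 and 10.9 CPM. T and NK cells had 4 of 15 fall, skeletal muscle 7 of 10 and sarcoma stroma 2 of 8. No gene of these last lists was higher at an unadjusted p under 0.05. The part of these tissues in the antibody levels was not tested.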

How the data were processed

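Raw counts of reads per gene, as the authors deposited them for 20 libraries in 1 table, were the start. Per the labels' protocols, RNA was made into stranded libraries after ribosomal depletion. Per the submitters' processing notes, Trimmomatic 0.36, STAR (version string 5.5.4b, doubtful as a release) and HTSeq were used with mm10. The annotation, the strand setting and the handling of reads shared by near-identical V genes (not given in the sources used here) could move V gene counts, and the build comes from a single inbred strain while the labels give a mixed background. Gene IDs were matched to GENCODE vM21: 51633 of 51826 had a symbol, the 193 without one held 0.017% of counts, and all 213 members matched in the same version.

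CPM used library totals scaled by TMM factors. The comparison between groups used edgeR 4.0.16 under R 4.3.3 (filterByExpr by group, chosen after seeing the data, minimum count 10, robust quasi-likelihood test, set as a block, 13 residual degrees of freedom, threshold 0.05). The pairing comes from titles and design text. Deviations of primary tumours and their own metastases correlated by -0.221 to 0.268 over the 1000 most variable genes. Log2 CPM used a prior count of 2. Isotype shares used counts divided by the union exon length in kb. Intervals are exact (Clopper-Pearson, 95%) and a count of 0 allows 3 counts. Shared sequence was searched as 50-base windows. DESeq2 1.42.0 and limma 3.58.1 (voom) were alternatives. The scripts were tested on simulated counts, where DESeq2 made more false calls than its nominal share. Those counts had the same dispersion for every gene and no set effect. They do not give the error rate of any tool for genes as variable as these.

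The members and the 12 gene lists were chosen with earlier results of these data known. Named genes were all constant genes and Jchain, the 3 V genes of most counts per locus, the leading V gene of each library, V genes past the threshold (up to 10), and the 3 genes of smallest p in the B cell, plasma cell, germinal centre, attracting factor and Fc receptor lists. Others are said to be chosen after their values were seen, as were Mzb1 and Vpreb2. Some genes of these lists are not reported here.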

Additional observations from a re-analysis of the deposited data

Results flagged for a closer look

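Among the 6 primary tumours 46 quantities were examined for a sample far from the others, and 16 were so marked. For normally spread values chance marks about 1 in 20 such groups. CPM values are skewed, with summed antibody CPM from 1.82 to 1906 in primary tumours, so chance can mark more of them. The quantities are also not independent, since most marks come from the same library. Primary tumour 5 was far above the other primary tumours in summed antibody CPM (1910), in Ighg2c (290 CPM), Ighg2b (109 CPM) and Ighg1 (132 CPM), the heavy chains of IgG, in Igkc (387 CPM), Jchain (149 CPM) and Iglc2 (2.47 CPM), and in the V genes Ighv1-15 (37.4 CPM), Igkv8-30 (60.2 CPM), Ighv2-9-1 (1.23 CPM), Ighv14-4 (2.29 CPM), Igkv6-32 (2.79 CPM) and Igkv17-121 (0.853 CPM). Primary tumour 1 was far above the others in Igkv14-126 (0.32 CPM), the V gene that passed the main test between groups, a call that ended in several alternatives. The same tumour stood out in the Ighe share (0.0174%), which rests on a single count. Primary tumour 4 had an Ighd share of 9.44%, also a single count.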

How the results depend on the processing

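The number of antibody genes higher in metastases was small under most alternatives and depended on the tool and the genes kept. Without the replicate block it was 1, as with it, and with limma voom it was 1. It was 19 with DESeq2, 4 of 213 with no filter on low counts, 0 of 62 with the metastases of each set summed, 2 of 65 with 1 metastasis of each set alone and 0 when a lung epithelium index was added to the model. Keeping genes by the design matrix in place of the groups, an alternative chosen after seeing the data, gave 3 of 146. Leaving out a set or a metastasis in turn gave 0 to 5, with 0 without set 2, 3, 4, 5 or 6, 2 without metastasis 1-4, 3 without 2-3, 4 without 3-2 and 5 without 2-4. The number lower was 0 in each of these fits apart from that with the lung covariate, where it was 23. Between the metastases of sets 1, 2, 3 and 6 the count was 0 with no filter and 37 by DESeq2, and leaving out a metastasis in turn gave 0 to 1, the 1 without metastasis 3-1. The cause of these differences was not tested, apart from the fewer samples or genes that some fits hold. Of all genes, 7.34% were higher in metastases in the main fit, 12.7% with DESeq2, 8.21% with limma voom and 5% with the lung covariate, where 3.51% were lower. No such share was worked out for the fits with other filters, with summed or left-out samples or with no block. Their counts of members cannot be set against a background.

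With the lung covariate, log2 fold changes past the threshold turned negative for Igha (-3.86), Ighg2c (-5.05), Jchain (-3.58), Iglc1 (-3.79), Igkv10-96 (-4.82), Igkv6-15 (-2.79), Iglv1 (-4.42), Ighv5-6 (-4.59) and Igkv1-110 (-3.88), and that of Igkv14-126 was -0.18. The lung covariate nearly separates the groups, so these values do not show levels at equal lung content. Of 777 values of named antibody genes under the other alternatives, 743 kept direction and side of the threshold, 12 passed it newly, 6 no longer passed (all Igkv14-126) and 16 had the opposite sign without a call, among them Ighg2c in 8. The medians of summed CPM, isotype shares and V gene numbers moved by less than 1 SD under their alternatives, but the SDs are wide, and the medians of V gene numbers ran from 50 to 160 in metastases and from 15 to 104.5 in primary tumours with the counts required. Depth limits the shares and V genes of metastases 2-3 and 2-4 and primary tumours 4 and 6, each with under 100 V counts.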
